A study of Mus musculus with 10 samples.

Results

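The 10 genes followed here, all of the adherens junction, were measured across 10 tumours: the classical cadherin genes Cdh1 and Cdh3, the catenin genes Ctnna1, Ctnnb1 and Ctnnd1, and Nectin1, Nectin2, Nectin3, Nectin4 and Pvr of the nectin and nectin-like family. They were taken by gene symbol and make up 10 of the 18047 genes measured. The tumours were grown for 3 weeks in BALB/c mice from 4T1, a mammary carcinoma line of that strain. Of the libraries 5 (KO1 to KO5) came from 4T1 cells in which the gene under study had been knocked out and 5 (WT1 to WT5) from wild-type 4T1 cells. All were frozen, sectioned tumours with the treatment label of in vivo growth and the batch label 1, so each library holds RNA of carcinoma cells together with that of host stroma, blood vessels and leukocytes. The labels give no age of the mice, do not say how many knockout clones were used and link no library to an identified mouse. The p-values therefore cover only how far these libraries scatter, part of which may be technical.

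Classical cadherins are membrane proteins that bind the same cadherin on the next cell through calcium-dependent repeats. Inside the cell their tail holds p120-catenin (Ctnnd1) near the membrane and beta-catenin (Ctnnb1) farther along, and beta-catenin binds alpha-catenin (Ctnna1), which connects to actin. Beta-catenin also acts outside the junction, as a coactivator of TCF/LEF transcription factors in Wnt signalling. Nectins are immunoglobulin-like adhesion molecules that are linked to actin through afadin. Nectin2 and Pvr are also ligands of the lymphocyte receptors TIGIT and CD226, and Pvr is a ligand of CD96. In mammary epithelium E-cadherin (Cdh1) is the cadherin of luminal cells and P-cadherin (Cdh3) that of basal and myoepithelial cells.

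On the GRCm38 assembly Cdh3 (chromosome 8, 106510891 to 106557297) and Cdh1 (chromosome 8, 106603351 to 106670246) are neighbours on the plus strand, with 46053 bases between them. Nectin2 (chromosome 7, 19716644 to 19750483) and Pvr (chromosome 7, 19903578 to 19921160) lie on the minus strand with 153094 bases between them. Exons of 4 of the 10 genes overlap those of other genes, and reads from the overlaps may belong to either gene. The strandedness of the counting is not given, and even stranded counting could not part genes on the same strand. Ctnnd1 shares 4482 of its 7319 exonic bases with the predicted protein-coding gene Gm28635 on its own strand. Ctnnb1 shares 782 bases with Ulk4 and a microRNA gene, Nectin2 shares 135 with an antisense gene, and Ctnna1 shares 95 with Lrrtm2.

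Repressors of cadherin genes such as the Snail and ZEB factors bind E-boxes with the letters CAGGTG, read on the other strand as CACCTG, which makes this motif the one of interest in these promoters. RefSeq promoter windows (GRCm38.p6, 250 bases before to 50 after a start) were present for 5 of the 10 genes, Ctnnb1, Ctnnd1, Nectin2, Nectin3 and Nectin4, in 7 windows. Cdh1, Cdh3, Ctnna1, Nectin1 and Pvr had no entry. The E-box was in 1 of the 7 windows, that of Nectin2, and in 20.2% of all 32851 windows. The TCF/LEF letters CTTTGAT, which read on the other strand as ATCAAAG, were in 0 of the 7 windows and in 3.73% of all. The Nectin2 stretch is shown because it holds the 1 match. It reads 5′ to 3′ on the minus strand (chr7:19749609-19749638), upstream of the start, with the E-box at positions -53 to -48 in capitals. By GENCODE M21 it lies within the Nectin2 gene, in an intron of a longer transcript and in no exon.
Nectin2: cgtggggccagaCAGGTGtgggacgcggga

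Library depth ran from 8609756 to 19934428 reads. Markers of other tissue differed between libraries. The summed level of 10 keratinocyte markers was 33.6 to 50.6 normalized counts in KO and 34.0 to 6671 in WT, with 631, 6671 and 3444 in WT2, WT3 and WT5, and 5 of these markers (Krt1, Flg, Flg2, Dsg1a and Dsc3) were at 0 in all KO libraries. The 8 skeletal muscle markers summed to 103762 in WT2 and to at most 10394 in any other library. A prefix, RESUB, which the labels leave unexplained, stands before the names of WT1 to WT4 and KO5. WT2 and WT5 share the library number 170, and their counts differed with a chi-square per degree of freedom of 143. The other pairs with WT2 gave 87.0 to 178, and the WT pairs without WT2 gave 38.4 to 117.

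Per kilobase of exon, the scale on which genes can be set beside each other, beta-catenin was the most abundant of the 10 and P-cadherin the least. Ctnnb1 was at 2306 ± 426 normalized counts per kb in KO and 1964 ± 328 in WT (SD over the 5 libraries of each group). Cdh1 and Ctnna1 came next. In WT, Cdh1 was at 591 ± 282 and Ctnna1 at 425 ± 131 per kb. In KO the order was the other way round, with Cdh1 at 275 ± 85.4 and Ctnna1 at 410.3 ± 87.3 per kb. Ctnnd1 followed at 129 ± 28.9 in KO and 154 ± 53.6 in WT, over an exon length of which 4482 of 7319 bases are shared with Gm28635. Pvr, Nectin2 and Nectin1 had mean levels of 101, 95.04 and 92.1 per kb over all libraries and did not differ beyond their spread. Nectin3 was at 51.1, Nectin4 at 18.6 and Cdh3 at 7.26 per kb over all libraries.

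**Figure D1:**
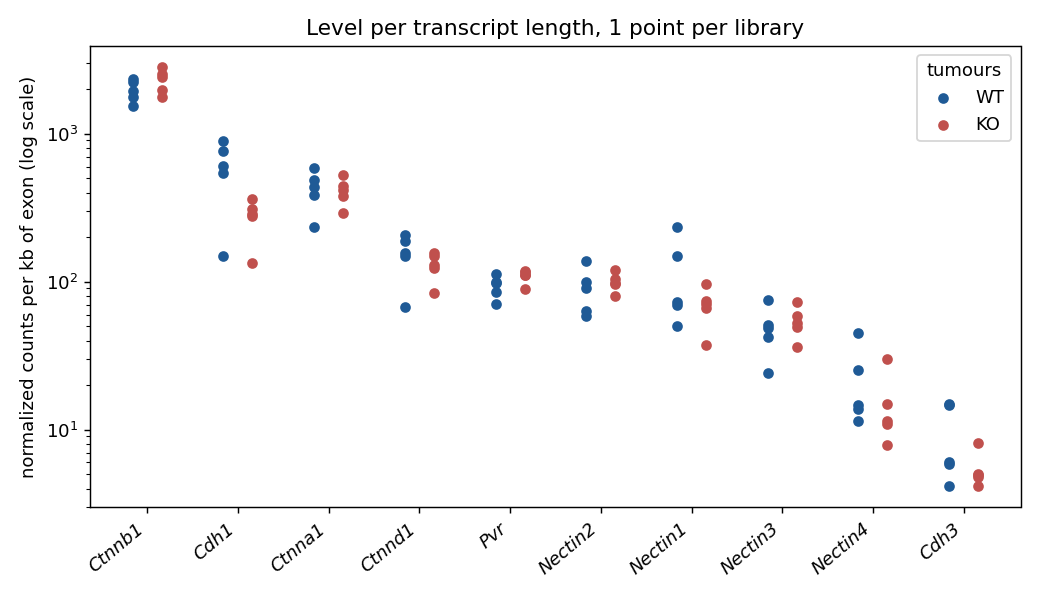
Normalized counts per kb of merged exon length on a log axis for the 10 genes, ordered by their mean over all libraries, with 1 point per library (blue WT, red KO). Ctnnb1 stands above all others in every library, and Cdh1 is the gene whose 5 red points lie lowest against the blue ones, with a single WT library, WT2, at 149.9 per kb among them.

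None of the 10 genes passed the test of KO against WT. The test was limma on log2 of the normalized count plus 1, adjusted over all 17975 genes tested, and it called 1 gene in all, 0.00556% of those tested. All 10 members entered it, 6 with lower and 4 with higher fitted values in KO, where 51.0% of all tested genes were lower. At an unadjusted p under 0.05 limma had 1 member, Cdh1, among the lower genes and 0 among the higher ones, against 3.67% and 2.82% of all tested genes. edgeR, which also called 0.00556% of genes, and DESeq2, which called 0.676%, both called 0 of the 10. The KO and WT libraries overlapped for all 10, whereas they did not overlap for 1.42% of tested genes. The median log2 difference of the 10 was -0.10, beside -0.0073 over all tested genes.

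**Figure D2:**
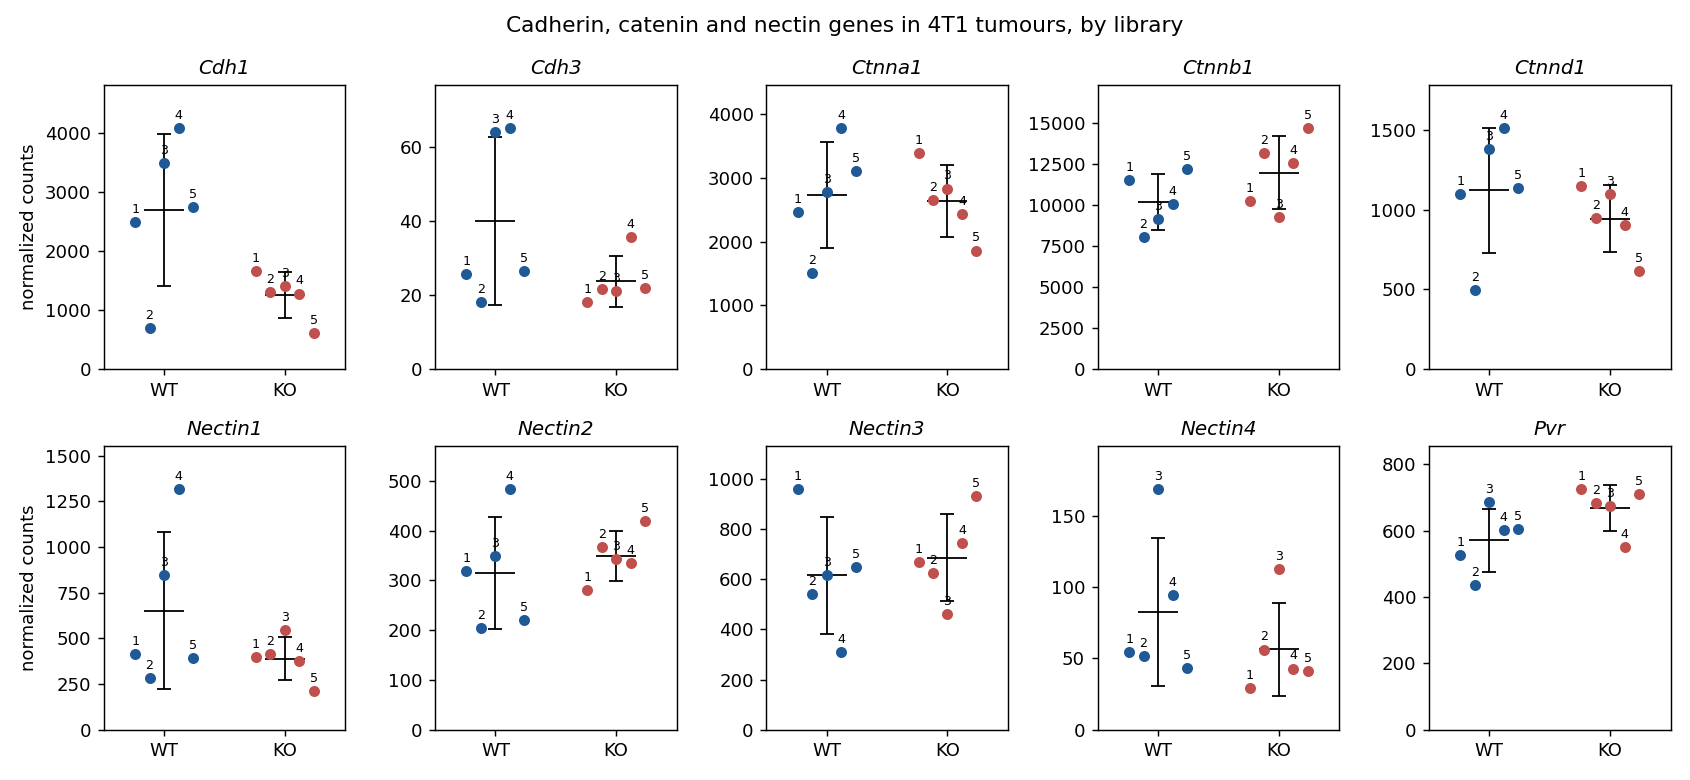
Normalized counts of each gene in each library, with the axis from 0 in every panel, numbers giving the library, bars the mean and whiskers the SD (n = 5 per group). For Cdh1 the WT libraries 1, 3, 4 and 5 lie above every KO library and WT2 lies among the lowest. The groups overlap for the other 9 genes as well.

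Cdh1 encodes E-cadherin, the main adhesion receptor of epithelial cells. It had 1667, 1307, 1412, 1279 and 613 normalized counts in KO1 to KO5 and 2496, 686, 3494, 4084 and 2748 in WT1 to WT5. In WT 4 libraries were above every KO library, while WT2 was below all KO libraries but KO5. The means were 1256 ± 390.4 in KO and 2701 ± 1289 in WT (SD over the 5 libraries of each group), a ratio of 0.465. The log2 difference was -0.96 ± 0.43 (SE), with a 95% interval from -1.89 to -0.033 (limma unadjusted p = 0.0434, adjusted p = 0.754). DESeq2 gave -1.11 and an adjusted p of 0.224. In whole-tumour RNA fewer carcinoma cells and less Cdh1 RNA per carcinoma cell cannot be told apart.

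The size of the Cdh1 difference depended on single libraries, and with 1 left out it ran from -1.40 to -0.72. The smaller differences were -0.72 without KO5, -0.76 without WT4 and -0.81 without WT3. The largest was -1.40 ± 0.27 (SE) without WT2, where the WT mean was 3205 ± 723 (SD, n = 4). For that fit limma gave an unadjusted p of 0.000198 and an adjusted p of 0.223. WT2 also held the most muscle RNA, and it was the lowest WT library for 8 of the 10 genes, all but Nectin3 and Nectin4. WT5, which carries the same library number, had 4.01 times as much Cdh1 as WT2. The part of muscle RNA in the level of WT2 was not tested. With the RESUB prefix as a term the Cdh1 difference was -1.41. Among prefixed libraries, with KO5 alone for KO, the value was -1.86, and among the others, with WT5 alone for WT, -0.96. Leaving out WT2, WT3 and WT5, in which Krt1 was detected, gave -1.42.

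Carcinoma markers were also at lower levels in KO, without passing the test in limma. All 14 tested carcinoma epithelium markers had lower fitted values in KO, with a median log2 difference of -0.86. In limma 0 passed the threshold and 10 had an unadjusted p under 0.05, against 3.67% of all tested genes lower at that p. In edgeR 0 passed and in DESeq2 1, against 0.00556% and 0.676% of tested genes. The summed level of the 14 was 13274 to 18819 normalized counts in KO and 17346 to 31256 in WT. Epcam, an epithelial adhesion molecule outside the cadherin family, ranged from 551 to 1889.8 normalized counts in KO and from 1843 to 3789.8 in WT. The log2 level of Cdh1 minus the mean log2 level of the 14 markers averaged 2.05 with an SD of 0.57 over the 5 KO libraries and 2.05 with an SD of 0.72 over the 5 WT libraries. With that mean entered as a covariate in limma, the Cdh1 difference was -0.0065 ± 0.51 (SE), with a 95% interval from -1.11 to 1.10 (adjusted p = 0.997). The marker means of the groups overlapped little, at 7.44 to 8.77 in KO and 8.61 to 9.66 in WT. The log2 differences of the 14 single markers ran from -2.31 (SE 0.49) to -0.20 (SE 0.31). Whether the marker mean follows carcinoma cell number was not tested. In WT2 Cdh1 minus the marker mean was 0.82, the lowest of all 10 libraries.

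**Figure D3:**
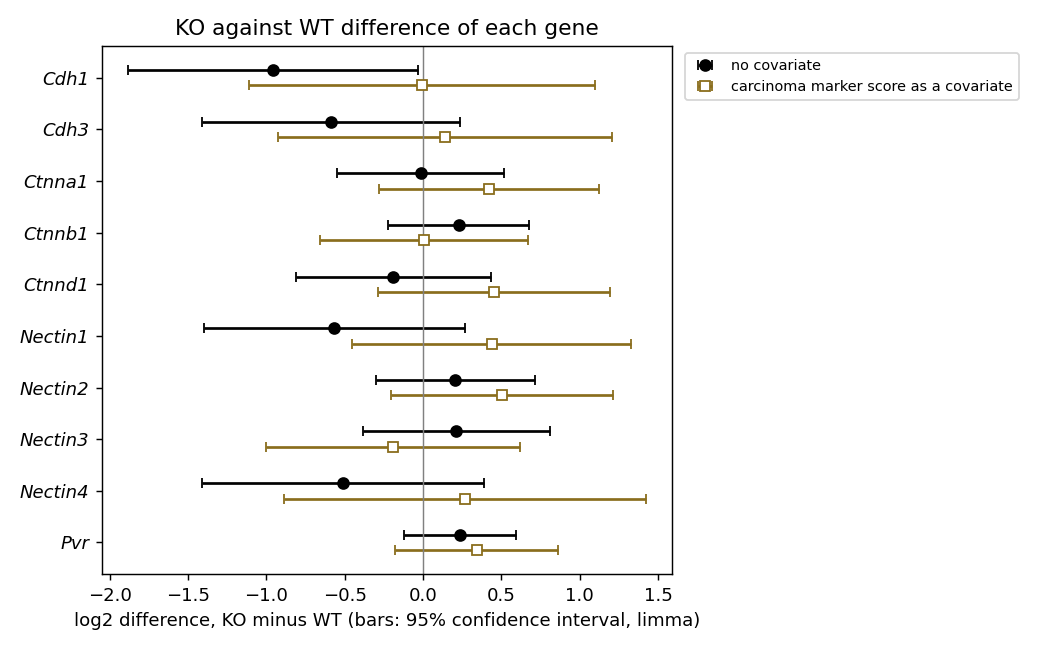
Log2 difference KO minus WT of each gene with its 95% confidence interval from limma, without a covariate (filled circles) and with the carcinoma marker score as a covariate (open squares). Without the covariate only the interval of Cdh1, from -1.89 to -0.033, lies below 0, and with it every interval spans 0.

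Cdh3, the gene of P-cadherin, was far less abundant than Cdh1. It had 18.2, 21.6, 21.1, 35.8 and 21.8 normalized counts in KO1 to KO5 and 25.8, 18.2, 64.1, 65.2 and 26.6 in WT1 to WT5, from 13 to 90 reads per library. WT3 and WT4 were the only WT libraries above every KO library. The log2 difference was -0.59 ± 0.38 (SE; limma adjusted p = 0.875), and it was -0.37 without WT3 and the same without WT4. Cdh3 is also made by basal keratinocytes, and the 2 high libraries differed in keratinocyte RNA, with marker sums of 6671 in WT3 and 34.0 in WT4. The 5 basal epithelium markers summed to 191 to 618 normalized counts in KO and to 625 to 7687 in WT, with 7687 in WT3 and 625 in WT4. All 5 had lower fitted values in KO (0 past the threshold in limma or edgeR, 2 in DESeq2). So had all 10 tested keratinocyte markers (0 in limma or edgeR, 5 in DESeq2). Over all tested genes DESeq2 called 0.676%. None of the 5 basal markers was at 0 throughout a group. The part of either list in the Cdh3 value was not tested. Per kb, Cdh1 exceeded Cdh3 by 26.9 to 87.9 times in KO and by 36.1 to 99.1 times in WT.

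Ctnnd1 encodes p120-catenin, which keeps cadherins at the membrane by blocking their uptake. It had 1152, 950.0, 1099.6, 906 and 613 normalized counts in KO1 to KO5 and 1098, 494, 1382, 1513 and 1135 in WT1 to WT5. The lowest libraries, WT2 and KO5, were also the lowest 2 for Cdh1, and the highest, WT4 and WT3, were the highest 2 for Cdh1. The log2 difference was -0.19 ± 0.29 (SE; limma 95% interval -0.81 to 0.43, adjusted p = 0.962), and -0.46 without WT2. Over the 10 libraries its log2 level had a Pearson correlation of 0.925 with that of Cdh1, which placed it 20th among 10994 genes by likeness. These are the same libraries, with the same depth and tissue makeup, so the value is a description.

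Ctnna1 encodes alpha-E-catenin, the actin-binding link of the complex. It had 3395, 2659, 2833, 2433 and 1859.5 normalized counts in KO1 to KO5 and 2470.0, 1508, 2784, 3779 and 3113 in WT1 to WT5. The WT range enclosed all KO libraries. The log2 difference was -0.015 ± 0.25 (SE), with a 95% interval from -0.55 to 0.52 (limma adjusted p = 0.995).

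Ctnnb1 encodes beta-catenin. It had 10219, 13147, 9256, 12562 and 14685 normalized counts in KO1 to KO5 and 11527, 8053, 9131, 10058 and 12209 in WT1 to WT5. KO2, KO4 and KO5 were above every WT library, and WT2 and WT3 were below every KO library. The difference was 0.23 ± 0.21 (SE), with an interval from -0.22 to 0.68 (limma adjusted p = 0.926). KO5, the library with the least Cdh1, had the most Ctnnb1, and the correlation of the 2 genes over the 10 libraries was -0.19.

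Set against E-cadherin in the same library, the catenins gave higher ratios in KO than in 4 of the 5 WT libraries. Per kb, Ctnnd1 was at 0.432 to 0.625 of Cdh1 in the KO libraries and at 0.232 to 0.275 in WT1, WT3, WT4 and WT5, with WT2 at 0.45. Ctnna1 was at 1.35 to 2.16 times Cdh1 in KO and below it, at 0.567 to 0.806, in the same 4 WT libraries, with WT2 at 1.57. Ctnnb1 was at 5.40 to 21.1 times Cdh1 in KO and at 2.1698 to 4.07 in those 4 WT libraries, with WT2 at 10.3. In all 3 ratios WT2 stood with the KO libraries. The ratios were set up without a test, and they carry the Cdh1 value in their denominator. How reads shared between Ctnnd1 and Gm28635 were counted is not given, so the height of the Ctnnd1 ratio is uncertain.

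**Figure D4:**
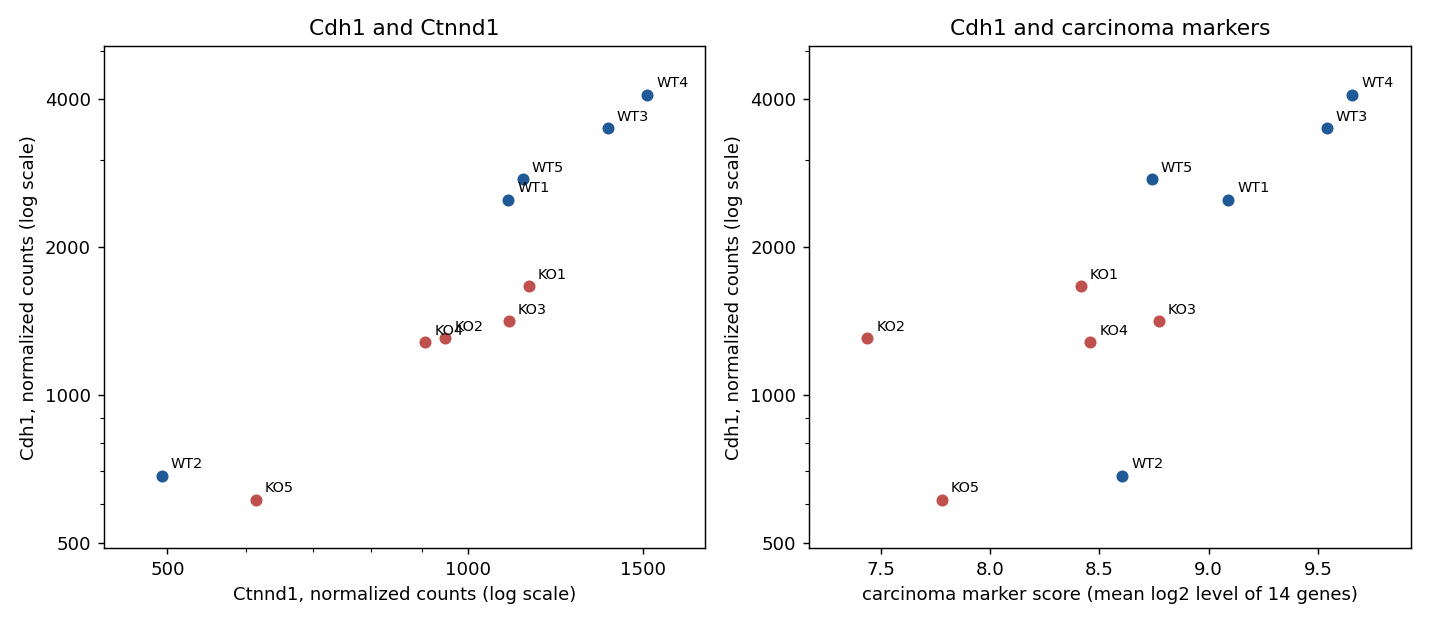
Cdh1 against Ctnnd1 (left, both in normalized counts on log axes) and against the mean log2 level of 14 carcinoma markers (right), 1 labelled point per library (blue WT, red KO). On the left WT2 and KO5 form the low end and WT3 and WT4 the high end, and on the right WT2, at 686 normalized counts of Cdh1, lies below the other libraries with a like marker level.

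Nectin1, a nectin of epithelia and an entry receptor of herpes simplex virus, had 398, 416, 544, 376 and 212 normalized counts in KO1 to KO5 and 413, 283, 849, 1318 and 394 in WT1 to WT5. WT3 and WT4 were above every KO library and the other 3 WT libraries lay among them. The log2 difference was -0.57 ± 0.39 (SE; limma adjusted p = 0.880). It was -0.25 without WT4 and -0.81 without WT2. Its correlation with Cdh1 over the 10 libraries was 0.839.

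Nectin4, a nectin of epithelial carcinomas, had 29.4, 56.3, 112, 42.9 and 41.0 normalized counts in KO1 to KO5 and 54.9, 51.9, 168.95, 94.8 and 43.2 in WT1 to WT5. KO3 and WT3 were the highest of their groups, and 3 KO libraries were below every WT library. The difference was -0.51 ± 0.42 (SE; limma adjusted p = 0.904). WT3, the library with the most Nectin4, also had the highest keratinocyte marker sum, 6671, while WT5, with a sum of 3444, had the least Nectin4 in WT; the part of keratinocyte RNA was not tested.

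Nectin3, the partner of Nectin1 and Nectin2 in heterophilic contacts, had 668, 626, 463, 746 and 933 normalized counts in KO1 to KO5 and 961, 542, 618, 309 and 650.2 in WT1 to WT5. The difference was 0.21 ± 0.28 (SE; limma adjusted p = 0.955). WT4, the highest library for 6 of the 10 genes, was the lowest WT library for Nectin3, and without it the difference was -0.014.

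Nectin2 and Pvr, ligands of TIGIT and CD226, were slightly higher on average in KO, within the spread. Nectin2 had 281, 367, 343, 335 and 419 normalized counts in KO1 to KO5 and 319, 204, 349, 484 and 220.4 in WT1 to WT5. Only WT2 and WT5 were below every KO library, and WT4 was above them all. Its difference was 0.21 ± 0.23 (SE; limma adjusted p = 0.951). It was -0.18 without WT2, WT3 and WT5. Pvr had 726, 685, 675, 549.8 and 709.8 normalized counts in KO1 to KO5 and 525, 435, 686, 603 and 605 in WT1 to WT5. KO1 and KO5 were above every WT library, and KO2, KO3 and KO4 lay within the WT range. Its difference was 0.24 ± 0.16 (SE), with an interval from -0.12 to 0.59 (limma adjusted p = 0.887), and Pvr had the narrowest spread in KO of the 10 genes, 1.32-fold from lowest to highest.

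The receptors of these ligands and the related Cadm adhesion genes were mostly higher in KO by their fitted values. Of 9 listed genes 8 were tested, with fitted values higher for 7 and lower for 1, and their log2 differences had a median of 0.59 (0.28 with the carcinoma score and 1.22 within the prefixed libraries). None passed in limma (0 of 8; unadjusted p under 0.05 for Cadm1, higher, and Cadm3, lower), edgeR or DESeq2. Cadm1, a nectin-like adhesion molecule and ligand of CRTAM, had 199.7 to 352 normalized counts in KO and 75.6 to 215 in WT (log2 1.00 ± 0.28 SE, limma adjusted p = 0.484). All KO libraries but KO3 were above every WT library. Crtam, its receptor on activated T and NK cells, was near the floor of the table at 9.79 to 18.3 in KO and 5.07 to 14.6 in WT (log2 0.79 ± 0.37, adjusted p = 0.777). Cadm3, a Cadm gene of nervous tissue, had 11.3 to 82.8 in KO and 39.9 to 303 in WT (log2 -1.48 ± 0.56, adjusted p = 0.687), with its highest level in WT2, and the difference was -0.81 once WT2, WT3 and WT5 were left out. The TIGIT, CD226, CD96 and PVRIG genes had log2 differences of 0.35, 0.64, 0.80 and 0.55. Of 5 leukocyte markers tested, 4 had higher fitted values in KO and 0 passed in limma, edgeR or DESeq2 (unadjusted p under 0.05 in limma for Ptprc). They had overlapping summed levels of 5553 to 7283 in KO and 4807 to 6555 in WT, and none at 0 throughout a group; their part was not tested.

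Other cadherins gave no call. Of 12 listed, 7 were tested, 3 lower and 4 higher, with a median log2 difference of 0.055 and 0 past the threshold in limma, edgeR or DESeq2 (0 at an unadjusted p under 0.05). Cdh2, the gene of N-cadherin, which mesenchymal cells carry in place of E-cadherin, had 25.3 to 69.8 normalized counts in KO and 25.2 to 34.1 in WT (log2 0.38 ± 0.29 SE, limma adjusted p = 0.898). Its highest library was KO5, the one with the least Cdh1 and the only KO library with the RESUB prefix. Cdh2 was low in all libraries, and with the carcinoma score as a covariate its difference was -0.021. Cdh15, the M-cadherin of muscle, and Cdh17, the cadherin of intestinal epithelium, had log2 differences of -0.64 and 0.20.

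Of 23 junction partners of the complex 17 were lower by their fitted values. Their median on the log2 scale was -0.15 (0.31 with the carcinoma score as a covariate), with 0 past the threshold in limma, edgeR or DESeq2 (unadjusted p under 0.05 in limma for Ssx2ip and Enah, lower). Ssx2ip, which encodes the afadin-binding protein ADIP, had 168.7 to 347 normalized counts in KO and 305 to 545 in WT (log2 -0.72 ± 0.22 SE, limma adjusted p = 0.548). Enah, an actin polymerase factor, had 485 to 557 in KO and 508 to 993 in WT (log2 -0.46 ± 0.19, adjusted p = 0.714). Ctnnbip1, an inhibitor of the binding of beta-catenin to TCF factors, had a log2 difference of -0.44. Among the direct binders, plakoglobin (Jup) was at -0.57, afadin (Afdn) at -0.19 and vinculin (Vcl) at 0.36.

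Beta-catenin control genes, the destruction complex and its nuclear partners, were lower by their fitted values for 12 of 13 genes. Their median on the log2 scale was -0.16 (0.20 with the carcinoma score as a covariate), with 0 past the threshold in limma, edgeR or DESeq2 (unadjusted p under 0.05 in limma for Amer1, lower). Amer1, a membrane scaffold of that complex, had 324 to 850.1 normalized counts in KO and 459.9 to 949 in WT (log2 -0.65 ± 0.30 SE, limma adjusted p = 0.759). Lef1 and Gsk3a, a TCF/LEF factor and a kinase of the complex, were at -0.37 and -0.21. Of the beta-catenin target genes 10 of 12 were tested, 7 lower and 3 higher, their median log2 difference being -0.13 (0.24 within the prefixed libraries), and 0 passed the threshold in limma, edgeR or DESeq2 (unadjusted p under 0.05 in limma for Notum, higher). The 3 with the smallest p encode feedback inhibitors of Wnt signalling. Notum had 81.1 to 161.7 normalized counts in KO and 26.4 to 170.9 in WT (log2 1.00 ± 0.40, limma adjusted p = 0.7099). Rnf43 was at 0.67 and Znrf3 at -0.38. Axin2, the most widely used readout of the pathway, had a log2 difference of -0.14.

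Genes that act on E-cadherin gave no call either. The 8 repressor genes divided into 4 lower and 4 higher, with a median log2 difference of 0.028 and 0 past the threshold in limma, edgeR or DESeq2 (0 at an unadjusted p under 0.05). Zeb2 had 3489.8 to 4057 normalized counts in KO and 2727 to 3797 in WT (log2 0.29 ± 0.16 SE, limma adjusted p = 0.823), Twist1 was at 0.37 and Snai2 at -0.49. Zeb2 and Twist1 are also expressed by stromal cells and leukocytes. The 12 turnover genes, which act in endocytosis, cleavage and phosphorylation of cadherins, divided into 4 lower and 8 higher, their median being 0.020, and 0 passed the threshold in limma, edgeR or DESeq2 (0 at an unadjusted p under 0.05). Fer, a kinase that binds p120-catenin, and Numb, an endocytic adaptor, both had a difference of 0.22.

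Among 10994 genes averaging 100 normalized counts or more (10995 for Cdh3, itself below that level), those most like a member in pattern were looked up. For Cdh1 they included Chrnb1 and Cobll1, with Pearson correlations of 0.964 and 0.957 over the 10 libraries. For Cdh3 they were Acadl, Parp16 and C1qtnf1 (0.919, 0.917 and 0.906). For Ctnnb1 they were Pgap1, Wls and Hif1a (0.92, 0.919 and 0.897), and for Pvr they were Tnfaip3, Cp and Ahr (0.938, 0.912 and 0.911). With 10 libraries and 10994 genes some high correlations arise in any data, so these are descriptions. The carcinoma markers at that level ran widely in their correlation with Cdh1. Grhl2, a transcription factor of epithelial junction genes, was closest at 0.848 (182nd) and Epcam was at 0.715 (1023rd), whereas Krt18, Spint2 and Krt8 were at 0.223, 0.166 and 0.0518.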

How the data were processed

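Total RNA of frozen 4T1 tumours was depleted of ribosomal RNA and made into libraries, per the labels' protocols. The authors deposited signal values, read counts per gene divided by 1 size factor per library. Dividing by the smallest step of a library gave whole reads for 100% of values (tolerance 0.0001). Base calls used bcl2fastq 2.17 and build GRCm38, per the submitters' processing notes; unique molecular identifiers were built into the cDNA, per the labels' protocols, and whether they were used in counting, the aligner, the counter and the strand setting are not given in the sources used here. Symbols, coordinates and exon lengths came from GENCODE M21 (17961 IDs matched, 86 did not).

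Genes averaging 10 normalized counts or more entered the test (17975, with 72 below). KO was compared with WT by limma 3.58.1 (R 4.3.3), its variance trend switched on, from log2(value + 1), a scale that understates changes of low genes, with Benjamini-Hochberg adjustment over all genes at 0.05. edgeR 4.0.16 and DESeq2 1.42.0 on recovered reads were alternatives. The limma step was tested on simulated data. Members and lists were chosen with earlier results of these data known. Named are all members, of each list up to 3 genes with the smallest p, Epcam and Krt1, and for Cdh1, Cdh3, Ctnnb1 and Pvr the 3 genes of most similar pattern. Jup, Afdn, Vcl, Axin2, Grhl2, Krt8, Krt18, Spint2, Ptprc, Tigit, Cd226, Cd96 and Pvrig were chosen after their values were seen. The planned check of the targeted gene, and some genes that the naming rule picks, are not reported here. Same-numbered KO and WT libraries were checked for pairing: correlations of their deviations ran from -0.229 to 0.518 and the labels give no shared origin. Marker lists of fibroblasts, endothelium and adipocytes were summed too (KO 21623 to 41871, 2462 to 3701 and 488 to 4898, and WT 27834 to 76511, 2091 to 3732 and 595 to 8724 normalized counts). Figures were drawn with matplotlib 3.10.9.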

Additional observations from a re-analysis of the deposited data

Results flagged for a closer look

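The values of 2 genes stood apart within their group by Dixon's gap test (critical value 0.71 for 5 libraries), both in KO4. Cdh3 was at 35.8 normalized counts in KO4, above the other 4 KO libraries, and Pvr was at 549.8, below them. With 20 groups tested for each end, chance flags about 1 group in 20, so a pair of flags is near what chance gives. WT2, the lowest WT library for 8 of the 10 genes, was not flagged for any of them.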

How the results depend on the processing

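No setting of 26 brought a member past the threshold. The count of genes called over the whole table, 1, was 121 by DESeq2, 52 within the libraries without the RESUB prefix, 2 with the carcinoma score, and 0 within the prefixed libraries, with WT2 and WT5 averaged, with WT2, WT3 and WT5 left out and with the keratinocyte score; it ran from 0 to 3 with 1 library left out. The set without the prefix has WT5 as its only WT library, and the prefixed set has KO5 as its only KO library. The gene counts of these sets, 52 and 0, therefore cannot part the knockout from what is particular to that library. WT5 had a keratinocyte marker sum of 3444, against 33.6 to 50.6 in KO. With the replicate block 1 gene was called, 6 members were lower and Cdh1 was at -0.96 (adjusted p = 0.665), and the replicate numbers pair nothing in the labels. The median of the 10 members was -0.59 within the prefixed libraries and 0.30 with the carcinoma score, where 2 of the 10 were lower, and -0.34 to 0.025 with 1 library left out (5 to 6 lower). Over the 26 settings Cdh1 ran from -1.86 to -0.0065, the value near 0 being that with the carcinoma score, and Pvr from 0.12 to 0.36. The list medians crossed 0 for adherens partners (-0.39 to 0.31), other cadherins (-0.22 to 0.16), turnover (-0.12 to 0.23), repressors (-0.15 to 0.14), beta-catenin control (-0.48 to 0.20) and targets (-0.25 to 0.24). With the carcinoma score the sign turned for Cdh3 (0.14), Ctnna1 (0.42), Ctnnd1 (0.45), Nectin1 (0.44), Nectin3 (-0.19), Nectin4 (0.27), Cdh2 (-0.021), Snai2 (0.11), Twist1 (-0.12), Amer1 (0.12) and Znrf3 (0.058). Within the libraries without the prefix it turned for Ctnnb1 (-0.13), Nectin1 (0.12), Nectin3 (-0.077), Nectin4 (0.30), Cdh17 (-0.54), Fer (-0.16) and Gsk3a (0.079). Within the prefixed libraries it turned for Numb (-0.29) and Lef1 (0.14), and with the prefix as a term for Numb (-0.025). Leaving out WT2, WT3 and WT5, or entering the keratinocyte score, turned it for Nectin2 (-0.18 and -0.058), and the GC and length correction turned it for Ctnna1 (0.077). With 1 library left out Ctnna1 ran from -0.21 to 0.12 and Nectin3 from -0.014 to 0.39. The causes were not tested. The GC correction used GENCODE transcripts. Low read numbers limit Cdh3 (13 to 90 reads) and Nectin4 (21 to 174 reads).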
